A study of Mus musculus with 12 samples.

Results

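Cathepsins are the main proteases of the lysosome, and cystatin C is a secreted inhibitor of most of them. The 9 cathepsin genes Ctsa, Ctsb, Ctsc, Ctsd, Ctsf, Ctsh, Ctsl, Ctss and Ctsz and the cystatin C gene Cst3 were taken by symbol from a table of 22915 genes, and all 10 were found and all 10 passed the filter on low values that left 13184 genes for testing. Primary cardiomyocytes of male C57/Bl6 mice aged 12 weeks were kept for 24 h in normoxia with sterile PBS or with 1 of 3 recombinant proteins. These were murine leukemia inhibitory factor (mLIF), which signals through the LIF receptor (LIFR), murine oncostatin M (mOSM), which signals through the OSM receptor (OSMR), and hlOSM, a murine OSM that carries the human AB loop and signals through both. The labels give 25 ng/mL for each cytokine, while the study's methods give a lower concentration. There were 3 libraries for each of the 4 conditions, 12 in all, and no genetic change separated the conditions. The sources used here do not say whether replicates came from separate mice or separate preparations, so the p-values measure the spread between these libraries only. Libraries with the same replicate number deviated in opposite ways from their condition means (r between -0.41 and -0.15 over 18 pairs), and p-values from a fit without a block for that number, as used here, may be too small.

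Values are normalized counts as the authors deposited them, rounded to whole numbers, with library totals between 2745748 and 2911891. Cells had been isolated from the heart without a stated sort. The 12 cardiomyocyte markers examined were all detected and summed to between 52181 and 54520 per PBS library, while 19 macrophage and monocyte markers summed to between 427 and 474. These sums are not divided by length. Most of the cardiomyocyte sum was Ttn, at a mean of 32924 in PBS and with 116825 exonic bases, so the sums are no measure of purity. The 2 neutrophil and 4 lymphocyte markers listed in the table did not exceed 4 in any library. Fibroblast, endothelial and smooth muscle genes were present, so these are RNA samples of a cardiomyocyte preparation and not of cardiomyocytes alone. In such bulk samples, fewer cells of a type cannot be told apart from less RNA per cell.

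Most cathepsins are made as inactive precursors, tagged with mannose 6-phosphate in the Golgi, carried to the lysosome by receptors and activated there by acid and by other proteases. Cathepsins B, C, F, H, L, S and Z are cysteine proteases of the papain type, cathepsin D is an aspartic protease and cathepsin A is a serine carboxypeptidase that also protects neuraminidase and beta-galactosidase. In heart muscle these enzymes complete the breakdown of cargo delivered by autophagy, and those that are secreted can cut matrix proteins. Cystatin C binds papain-type cathepsins outside the cell and in the secretory route. Many lysosomal genes carry in their promoters the E-box core CACGTG, which TFEB and related factors of the MiT/TFE family bind, and STAT factors, which act downstream of LIFR and OSMR, bind the GAS pattern, TTC and GAA with 3 free bases between them.

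Because these letters name the factors most often discussed for lysosomal genes and for LIF and OSM, they were looked for in the promoter windows of RefSeq on GRCm38.p6, which span 250 bases before and 50 bases after an annotated start. Of the 10 genes, 8 had a window, and Ctsb and Ctsh had none in the table used. Both patterns read the same on either strand. The E-box core was found in 4 of the 8 genes, Ctsa, Ctsd, Ctsf and Ctsl, against 8.09% of the 27025 genes with a window and 7.15% of all 32851 windows. With a T before the core or an A after it, the count was 2 of 8, Ctsa and Ctsd, against 4.29% of genes and 3.77% of windows. The GAS pattern was found in 1 of 8, Ctsc, against 9.55% of genes and 8.3% of windows. Each match is given here in 30 bases, 5′ to 3′ on the strand of the gene, with the matched letters in capitals and the position of the first capital counted from the start base as 1.
Ctsa, position -12, chr2:164833749-164833778, plus strand: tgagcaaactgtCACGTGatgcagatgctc
Ctsa, position 6, chr2:164833766-164833795, plus strand: gatgcagatgctCACGTGaccagagctaca
Ctsd, position -245, chr7:142388048-142388077, minus strand: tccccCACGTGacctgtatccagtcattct
Ctsd, position -98, chr7:142387908-142387937, minus strand: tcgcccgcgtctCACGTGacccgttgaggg
Ctsf, position -79, chr19:4855074-4855103, plus strand: caccccgtggtcCACGTGcctcgcgtaaat
Ctsl, position -236, chr13:64370739-64370768, minus strand: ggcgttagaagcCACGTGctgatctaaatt
Ctsc, position -236, chr7:88277839-88277868, plus strand: agctttggcgTTCCTTGAAaggcagaggtc
The matches of Ctsa lie around the second of its 2 annotated starts. A match is a run of letters and not a measured binding site.

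Levels of different genes were compared per kb of exon, since the deposited values are not divided by length. In PBS, Cst3 was the highest of the 10 genes at 262 ± 19.4 normalized counts per kb (mean ± SD, n = 3), above Ctsd at 187 ± 4.48 and Ctsb at 157 ± 11.8. The 3 libraries of Cst3 did not overlap with those of Ctsd, nor those of Ctsd with those of Ctsb. These lengths include bases shared with other genes, and the study left out reads that overlap several genes. Shared bases were 34.4% for Ctsd, 26.8% for Ctsl, 17.4% for Ctsa, 12.8% for Ctsb and 0% for Cst3. Levels of genes with shared bases may thus be too low here, and the place of Cst3 above Ctsd may not hold. Ctss followed at 96.5 ± 6.42 per kb and Ctsz at 80.5 ± 3.02. Ctsa at 40.3 ± 2.45 and Ctsl at 38.6 ± 0.849 overlapped each other. The lowest levels per kb were those of Ctsc at 19.2 ± 2.89, Ctsf at 16.7 ± 0.198 and Ctsh at 12.6 ± 1.78, and Ctsc overlapped with Ctsf. Cathepsin S and cathepsin H are best known from antigen-presenting cells and macrophages, and Ctss held the fourth place here while Ctsh held the last.

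With the exons of all transcripts, the first 5 places by mean were the same in all 4 conditions. Ctsl stood above Ctsa in the mOSM and hlOSM groups. With mOSM and with hlOSM, however, libraries of Cst3 overlapped with those of Ctsd, Ctsd with Ctsb, and Ctss with Ctsz. With hlOSM, Cst3 lay between 204 and 217 per kb and Ctsd between 195 and 234. Between PBS and hlOSM, Cst3 went from 262 to 211 ± 6.81 per kb and Ctsb from 157 to 196 ± 17.4. The order depends on which transcripts give the length, for upper and lower genes alike. With the exons of GENCODE basic transcripts only, an alternative chosen after the data were seen, Cst3 was at 386 per kb, Ctsd at 207 and Ctsb at 200, the last pair then overlapped, Ctsf moved up to the seventh place at 42.4 and Ctsc became the lowest. With these lengths Ctsb stood above Ctsd in each cytokine group, at 250 against 231 per kb with hlOSM, where the libraries overlapped, and Ctsl stayed below Ctsa in all 4 conditions.

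**Figure D1:**
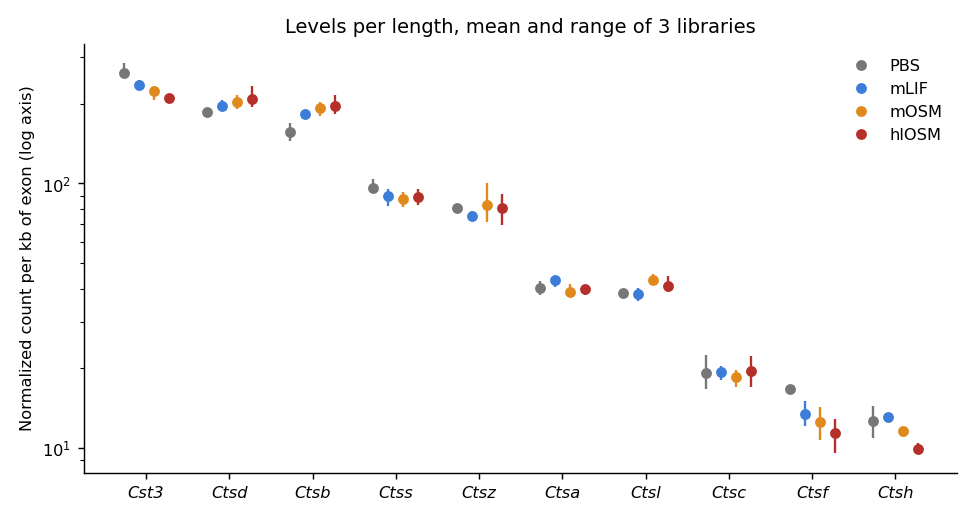
Normalized count per kb of exon (log axis) of the 10 genes, ordered by their mean in PBS; points are means and lines span the lowest to the highest of 3 libraries per condition. Cst3, Ctsd and Ctsb form the upper group, at 157 to 262 per kb in PBS, and Ctsc, Ctsf and Ctsh the lower one, at 12.6 to 19.2 per kb.

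Ctsb, the gene of cathepsin B (ENSMUSG00000021939, mm10 chr14:63122462-63145923, plus strand), is a papain-type enzyme with both endopeptidase and carboxydipeptidase activity. It was higher with each of the 3 cytokines than with PBS. The PBS libraries 1, 2 and 3 held normalized counts of 1021, 946 and 878. The mLIF libraries held 1131, 1083 and 1104, the mOSM libraries 1085, 1171 and 1232, and the hlOSM libraries 1108, 1142 and 1305. Every cytokine library lay above every PBS library, and the cytokine groups overlapped with one another. On the log2(normalized count + 1) scale, used for all fold changes here, Ctsb rose by 0.29 ± 0.065 (SE) with mOSM (limma, Benjamini-Hochberg adjusted p = 0.00135) and by 0.32 ± 0.065 with hlOSM (adjusted p = 0.00049), which is 1.23-fold and 1.25-fold. With mLIF it rose by 0.22 ± 0.065 (adjusted p = 0.031). The mLIF call was lost with the replicate number as a block (adjusted p = 0.0501), with no filter on low values (0.0511), and in 5 of the 6 fits that left out 1 of its libraries: without PBS replicate 2 (0.0736) or 3 (0.172) and without mLIF replicate 1 (0.102), 2 (0.0624) or 3 (0.0976). The mOSM and hlOSM calls held in all 9 other settings and all 6 left-out fits. Of the exonic bases of Ctsb, 12.8% overlap Fdft1 on the other strand, and the strand setting of the counting is not given in the sources used here.

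Ctsl and Ctss, also genes of papain-type endopeptidases, did not pass the threshold with any cytokine. Ctsl, the gene of cathepsin L (ENSMUSG00000021477, chr13:64359337-64370890, minus strand), had 251, 256 and 245 normalized counts in PBS, 260, 233 and 252 under mLIF, 268, 294 and 279 under mOSM and 255, 251 and 290 under hlOSM. The mOSM libraries lay above all PBS and all mLIF libraries, as they did for 12.9% of all genes against mLIF. The difference of mOSM from PBS was 0.16 ± 0.070 on the log2 scale (limma adjusted p = 0.0894), and of hlOSM from PBS 0.08 (adjusted p = 0.402). Part of the exons of Ctsl, 26.8%, overlap the predicted genes Gm47123 and Gm49230.

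Ctss, the gene of cathepsin S (ENSMUSG00000038642, chr3:95526786-95556403, plus strand), which trims the invariant chain of MHC class II, was at 125, 127 and 141 in PBS, 123, 112 and 129 under mLIF, 111, 126 and 120 under mOSM and 129, 121 and 113 under hlOSM. Its differences from PBS were -0.11, -0.14 and -0.11 on the log2 scale, and none passed the test. Macrophage and monocyte markers, which come from cells rich in cathepsin S, summed to 413 to 452 with mLIF, 471 to 526 with mOSM and 439 to 520 with hlOSM, against 427 to 474 in PBS. Fcgr1, Cd14 and the C1q genes were near 0 in all libraries. Cd68, which marks lysosomes of phagocytes, was at 61, 60 and 40 in PBS and 118, 109 and 170 with hlOSM, and rose by 1.28 (limma adjusted p = 1.49e-06). Fcer1g, an Fc receptor subunit, also rose, by 1.32 (0.0061), while Lyz2, the gene of lysozyme, fell by 0.27 (0.0163) and Mrc1, the gene of the macrophage mannose receptor, fell by 0.36 (0.0482, and 0.0988 with the replicate block). The other 6 tested markers of this list did not pass with hlOSM. These genes were named after their values were seen. The part of these markers in the level of Ctss was not tested.

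Ctsf, the gene of cathepsin F (ENSMUSG00000083282, chr19:4855130-4860918, plus strand), a papain-type enzyme with a long propeptide, was lower with the cytokines. It was at 85, 84 and 83 normalized counts in PBS. With mLIF it was at 66, 61 and 76, with mOSM at 72, 63 and 54, and with hlOSM at 48, 59 and 65. All 9 cytokine libraries lay below the 3 PBS libraries, whose spread was narrow at 84 ± 1 (SD, n = 3). Ctsf fell by 0.42 ± 0.13 on the log2 scale with mOSM (limma adjusted p = 0.0173) and by 0.55 ± 0.13 with hlOSM (adjusted p = 0.00188), which leaves 0.681 of the PBS level with hlOSM. With mLIF the difference was -0.31 ± 0.13 (adjusted p = 0.131). Without mOSM replicate 3 the difference with mOSM was -0.31 (adjusted p = 0.0892). Its fall was the largest of the 10 genes in both comparisons in which it passed the test. Of the genes with the E-box core, here without a flanking T or A, Ctsf was the only 1 to pass the test with a cytokine.

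Ctsh, the gene of cathepsin H (ENSMUSG00000032359, chr9:90054152-90076089, plus strand), an aminopeptidase, was lowest with hlOSM. PBS libraries held 49, 56 and 65 normalized counts, mLIF libraries 61, 57 and 58, mOSM libraries 52, 54 and 50 and hlOSM libraries 47, 43 and 44. Each hlOSM library was below every other library, and the mOSM libraries were below all mLIF libraries. Of all genes, 17.1% had hlOSM below mLIF without overlap, 5.62% had hlOSM below mOSM and 14.1% had mOSM below mLIF. Ctsh fell by 0.33 ± 0.125 against PBS (limma adjusted p = 0.0421) and by 0.39 ± 0.125 against mLIF (adjusted p = 0.0359), while its difference from mOSM was -0.22 (adjusted p = 0.72). Both calls were lost with the replicate number as a block (adjusted p = 0.105 against PBS and 0.108 against mLIF) and with no filter on low values (0.0592 and 0.0513), and the call against PBS also in a fit of its 6 libraries alone (0.0811). The call against PBS held in only 1 of 6 left-out fits, the one without PBS replicate 1 (adjusted p = 0.0191 there, up to 0.213 without PBS replicate 3), and that against mLIF in 0 of 6 (adjusted p between 0.0548 and 0.12).

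Ctsc and Ctsz, an aminodipeptidase that activates granule serine proteases and a carboxypeptidase, did not pass the test with any cytokine. Ctsc (ENSMUSG00000030560, chr7:88278085-88310888, plus strand), the gene with the GAS pattern, was at 97, 108 and 130 normalized counts in PBS, 105, 118 and 113 under mLIF, 111, 114 and 99 under mOSM and 129, 99 and 112 under hlOSM. Ctsz (ENSMUSG00000016256, chr2:174427493-174439039, minus strand) was at 121, 114 and 113 in PBS, 106, 106 and 113 under mLIF, 110, 103 and 145 under mOSM and 117, 131 and 100 under hlOSM. Groups of both genes overlapped with PBS under every cytokine.

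Among the cathepsins of other types, Ctsd, the gene of the aspartic protease cathepsin D (ENSMUSG00000007891, chr7:142375911-142388038, minus strand), was at 451, 430 and 439 normalized counts in PBS, 485, 453 and 452 under mLIF, 450, 509 and 475 under mOSM and 469, 459 and 549 under hlOSM. The mLIF and hlOSM libraries lay above all PBS libraries, those of mLIF by as little as 1 normalized count. The difference of hlOSM from PBS was 0.16 (limma adjusted p = 0.0696). This value lies near the threshold and passed it with trimmed-mean rescaling (adjusted p = 0.0425), with quantile normalization (0.0199) and without hlOSM replicate 2 (0.0366). The predicted gene Gm49369 on the same strand covers 34.4% of the exonic bases of Ctsd. Ctsa (ENSMUSG00000017760, chr2:164832873-164841032, plus strand) was at 179, 189 and 202 in PBS, 210, 192 and 210 under mLIF, 178, 196 and 176 under mOSM and 193, 179 and 193 under hlOSM, and overlapped with PBS throughout. Ctsa and Ctsd, the genes with the flanked E-box core, thus did not pass the test with any cytokine.

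Cst3, the gene of cystatin C (ENSMUSG00000027447, chr2:148871722-148875692, minus strand), moved against Ctsb. Its libraries were at 319, 316 and 360 normalized counts in PBS, 313, 294 and 285 under mLIF, 262, 295 and 292 under mOSM and 275, 258 and 269 under hlOSM. Every cytokine library lay below every PBS library. The hlOSM libraries also lay below all mLIF libraries, as they did for 17.1% of all genes. Cst3 fell by 0.23 ± 0.070 on the log2 scale with mOSM (limma adjusted p = 0.0153) and by 0.31 ± 0.070 with hlOSM (adjusted p = 0.0013), which leaves 0.808 of the PBS level with hlOSM. With mLIF the difference was -0.16 ± 0.070 (adjusted p = 0.161). The mOSM call was lost without PBS replicate 3 (adjusted p = 0.104) or without mOSM replicate 1 (0.0962), and the hlOSM call held in all left-out fits.

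**Figure D2:**
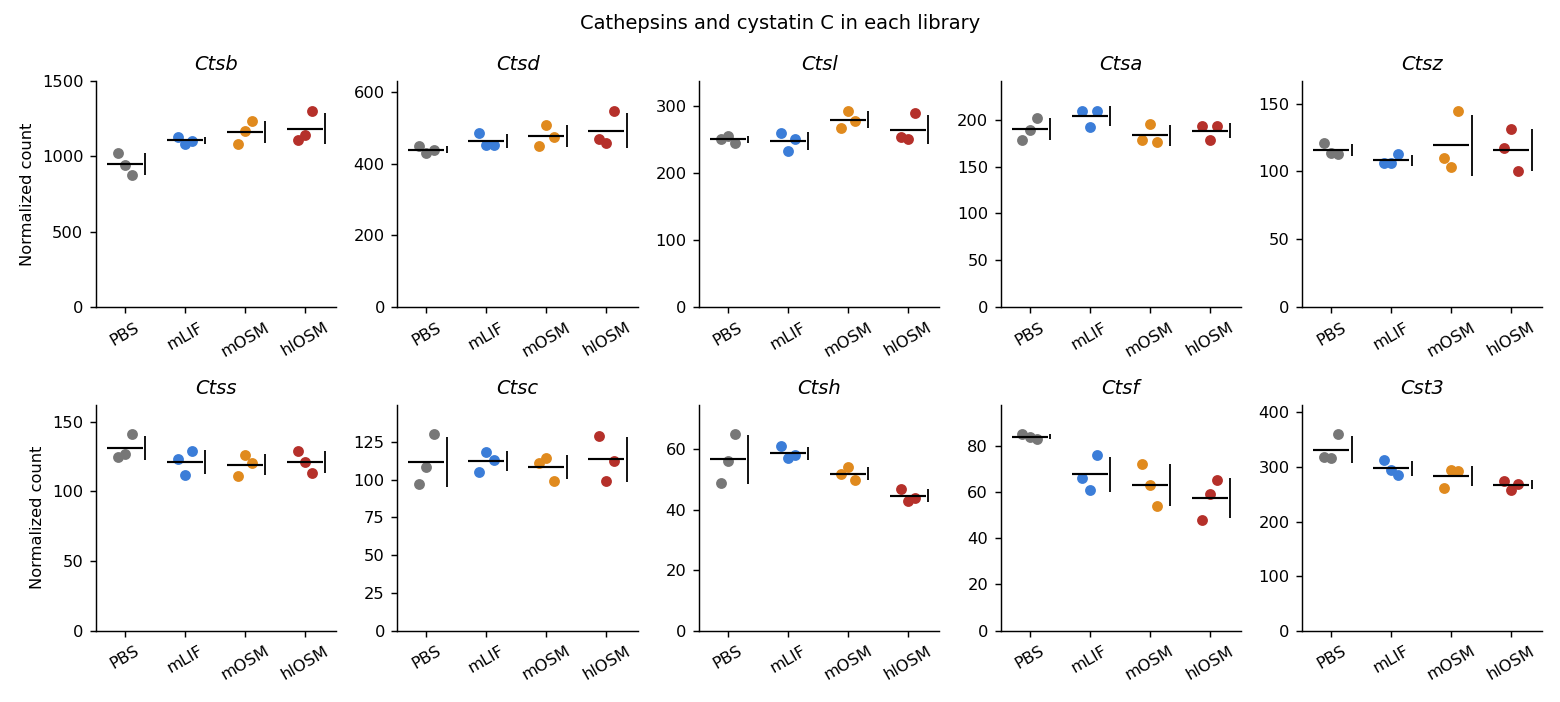
Normalized count of each of the 9 cathepsin genes and Cst3 in the 12 libraries, by condition; horizontal lines are means, vertical lines are ± 1 SD of 3 libraries, and each vertical axis starts at 0. Ctsb is higher and Ctsf and Cst3 are lower in all 9 cytokine libraries than in the 3 PBS libraries, and Ctsh is lowest in the 3 hlOSM libraries.

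Read together, 1 of the 10 genes rose and 0 fell with mLIF, where 5.47% of all tested genes rose and 4.44% fell. The 0 falls with mLIF are by limma, and Ctsf and Cst3 were at an unadjusted p under 0.05 there, as was Ctsb among 3 genes in all. The share of all genes at that unadjusted level was not counted. With mOSM 1 rose and 2 fell, where 15.4% of all genes rose and 15.8% fell, and with hlOSM 1 rose and 3 fell, where 18.2% rose and 19.8% fell. These shares are near those of all genes. The medians of the 10 log2 fold changes were -0.00081 under mLIF, -0.046 under mOSM and -0.0099 under hlOSM, and those of all tested genes were 0.00037, -0.0043 and -0.0052. Groups did not overlap for 2 higher and 2 lower genes with mLIF (14.7% and 15.6% of all genes), for 2 and 2 with mOSM (20.2% and 19.9%) and for 2 and 3 with hlOSM (22.7% and 24.3%). In the F test over the 4 conditions, 3 of 10 passed, Ctsb (limma adjusted p = 0.00159), Cst3 (0.00776) and Ctsf (0.0109), where 34.2% of all genes passed. The 3 comparisons share the PBS libraries.

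Ctsa, Ctsc, Ctsd, Ctsl, Ctss and Ctsz, the 6 genes that did not pass the test with any cytokine, gave 18 estimates against PBS between -0.14 and 0.16 on the log2 scale. Their 95% intervals reached from -0.33 to 0.31, or 0.793-fold to 1.24-fold. Changes within these bounds are not left out by 3 libraries a group.

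**Figure D3:**
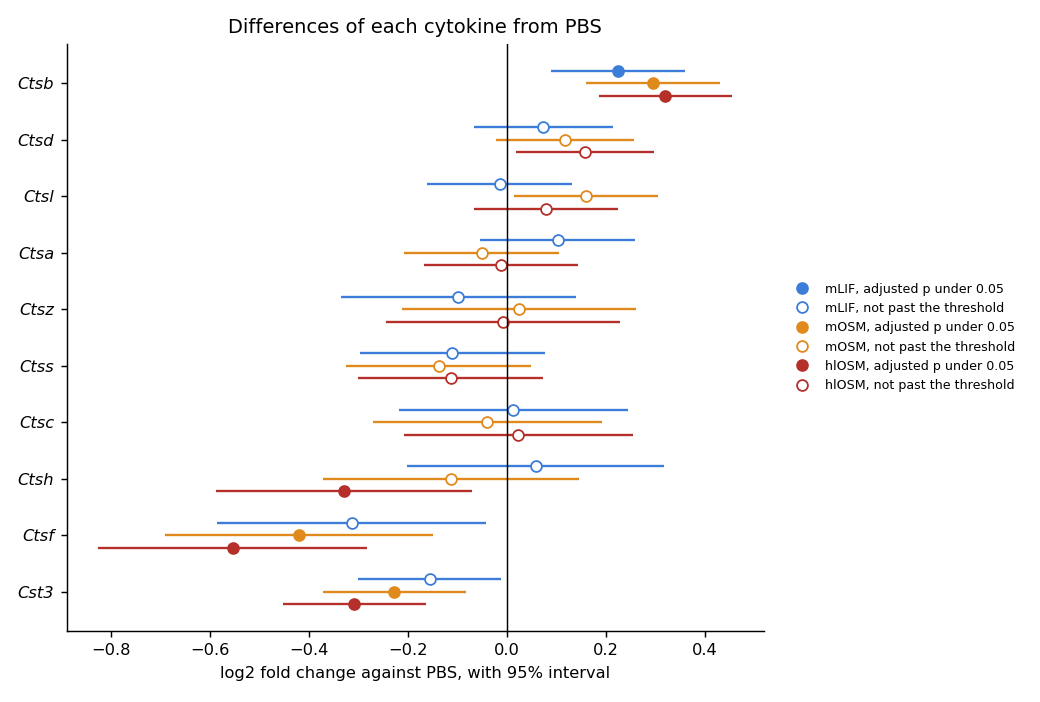
Estimated log2 fold change of each gene with mLIF, mOSM and hlOSM against PBS; lines are 95% intervals and filled points passed the limma test at an adjusted p under 0.05. Ctsb is to the right of 0 with each cytokine, from 0.22 to 0.32, and Ctsf and Cst3 are to the left, down to -0.55 and -0.31 with hlOSM.

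The difference between the receptor arms was compared directly. Between mOSM and mLIF, 0 of 10 genes passed the limma test, where 6.05% of all genes were higher and 5.76% lower, and 1 of 10, Ctsl, was at an unadjusted p under 0.05. Between hlOSM and mLIF, 0 were higher and 1, Ctsh, was lower, where 7.42% of all genes were higher and 9.22% lower, and 2 of 10 were at an unadjusted p under 0.05. Between hlOSM and mOSM, 0 of 10 passed and 0 were at an unadjusted p under 0.05, where 0% of all genes were higher and 0.106% lower. These percentages are at the adjusted threshold, and the share of all genes at an unadjusted p under 0.05 was not counted. Without overlap, 0 of 10 were higher with hlOSM than with mOSM, where 4.12% of all genes were, and 1, Ctsh, was lower. The 95% intervals of hlOSM against mOSM reached from -0.47 to 0.29 over the 10 genes and from -0.11 to 0.16 for Ctsb.

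Whether the step from mOSM to hlOSM differs from the step from PBS to mLIF was tested as an interaction, and 0 of 10 genes passed by limma (adjusted p between 0.412 and 0.938), where 0.0152% of all genes were positive and 0.152% negative. The interaction of Ctsb was -0.20 (95% interval from -0.39 to -0.0074, adjusted p = 0.412), the only 1 of the 10 at an unadjusted p under 0.05. How many of all genes reached that unadjusted level was not counted. In log2 terms Ctsb was 0.22 higher with mLIF than with PBS and 0.03 higher with hlOSM than with mOSM. The differences of Ctsb and Cst3 from PBS were in order of mLIF, mOSM and hlOSM, but neighbours in that order overlapped for both genes.

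The makeup of the cathepsin transcripts is a description of the same values and was not tested. The normalized counts of the 9 cathepsin genes summed to 2328 ± 44.4 (SD, n = 3) in PBS, 2490 ± 67.7 under mLIF, 2566 ± 111 under mOSM and 2583 ± 163 under hlOSM. Ctsb made up 40.7% ± 2.35 of that sum in PBS and 45.8% ± 1.35 with hlOSM. Per kb, the 7 papain-type genes summed to 1.61 ± 0.123 times the level of Cst3 in PBS, 1.84 ± 0.109 under mLIF, 2.01 ± 0.0768 under mOSM and 2.12 ± 0.0813 under hlOSM. The PBS libraries lay between 1.47 and 1.70 and the hlOSM libraries between 2.03 and 2.19, so that the groups did not overlap. The size of this ratio depends on the lengths, which were those of all transcripts, and it was not computed with basic transcripts. With those, Cst3 was at 386 instead of 262 per kb in PBS, Ctsf at 42.4 instead of 16.7 and Ctsh at 35.0 instead of 12.6. The ratio of Ctsb to Cst3 in normalized counts was 2.88 ± 0.394 in PBS, 3.72 ± 0.135 under mLIF, 4.11 ± 0.128 under mOSM and 4.44 ± 0.411 under hlOSM. These are transcript ratios, and enzyme and inhibitor proteins were not measured here.

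**Figure D4:**
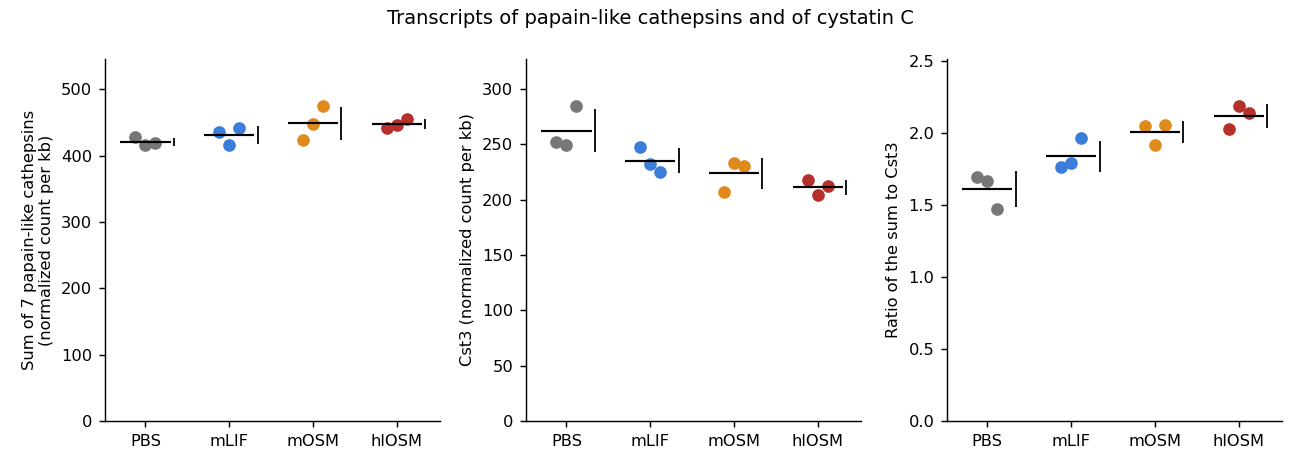
Summed level of the 7 papain-type cathepsin genes and level of Cst3, both in normalized counts per kb of exon of all transcripts, and their ratio, in each library by condition; horizontal lines are means, vertical lines ± 1 SD of 3 libraries, and the axes start at 0. The ratio lies between 1.47 and 1.70 in PBS and between 2.03 and 2.19 with hlOSM, where Cst3 is lower.

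Across the 12 libraries, which differ in treatment, Ctsb and Ctsd had a Pearson r of 0.81, Ctsd and Ctsl of 0.76 and Ctsh and Cst3 of 0.74, while Ctsb and Cst3 were at -0.71. The genes most like Ctsb among 8668 genes with a mean of at least 50 were Sgms1 (r = 0.991), a sphingomyelin synthase, Ampd3 (0.989), an AMP deaminase, and Vmp1 (0.985), which acts in autophagosome formation. Those most like Cst3 were Rfc1 (0.965), a subunit of the clamp loader of DNA replication, Pygm (0.961), muscle glycogen phosphorylase, and Fam174b (0.960). With n = 12 libraries in 4 treated groups, these values describe a shared order of libraries only.

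The counts of the following lists stand beside the percentages of all genes given above for each cytokine against PBS, and the medians beside those of all genes, which lay within 0.01 of 0. Of the other cathepsins, 3 of 15 listed genes were tested. Tinagl1, a cathepsin B-related protein without protease activity, was at 93, 102 and 77 normalized counts in PBS and 134, 124 and 132 with hlOSM, and rose by 0.47 with mOSM (limma adjusted p = 0.00633) and by 0.52 with hlOSM (0.0022). Ctsk, the collagen-cutting cathepsin K of osteoclasts, was at 33, 38 and 34 in PBS and 34, 27 and 26 with hlOSM. Ctso was at 50, 60 and 54 in PBS and 59, 50 and 54 with hlOSM, and neither gene passed the test with any cytokine.

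Of 29 other inhibitors, some of cysteine and some of serine proteases, 9 were tested. Of these, 1 rose with mLIF, 2 rose and 1 fell with mOSM, and 2 rose and 2 fell with hlOSM. The medians were 0.13, 0.18 and 0.13 for the 3 cytokines in that order. The calls were of Serpinb1a, Serpinb6a, Serpinb9 and Birc5, and Cstb, Cst6 and Cast did not pass with any cytokine. Serpinb1a, an inhibitor of neutrophil serine proteases, changed most. It was at 211, 215 and 111 in PBS, 325, 338 and 422 under mLIF, 404, 406 and 565 under mOSM and 524, 486 and 614 under hlOSM, with no overlap with PBS, and rose by 1.06 (limma adjusted p = 0.000499), 1.40 (1.6e-06) and 1.65 (1.14e-07). Serpinb6a, which inhibits cathepsin G, rose by 0.18 with mOSM (adjusted p = 0.0495, and 0.0885 with the replicate block) and by 0.26 with hlOSM (0.00451). Serpinb9, the granzyme B inhibitor, fell by 0.48 and 0.41 with mOSM and hlOSM, and Birc5, the gene of survivin, fell by 0.56 with hlOSM.

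Cstb, the gene of the cytosolic inhibitor cystatin B, went the other way from Cst3 in its estimates but did not pass the test. It was at 39, 39 and 25 normalized counts in PBS and 46, 43 and 46 with hlOSM, a difference of 0.41 ± 0.207 (limma adjusted p = 0.127). Cast, the calpain inhibitor calpastatin, was at 989, 965 and 1000 in PBS and 1009, 976 and 1062 with hlOSM. Cst6, Spint2 and Serpinb6b did not pass the test either.

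A list of 15 genes held those whose products process cathepsins or bind them together with other lysosomal enzymes, such as Gaa, Dpp7 and Pcyox1, that do neither, and of these 15 3 rose with mLIF, 4 rose and 1 fell with mOSM, and 5 rose and 1 fell with hlOSM, with medians of 0.067, 0.14 and 0.10. Lgmn, the asparaginyl endopeptidase legumain that cuts cathepsin precursors, was at 447, 446 and 441 in PBS, 520, 498 and 531 under mLIF, 583, 603 and 626 under mOSM and 612, 612 and 634 under hlOSM. Its mOSM and hlOSM libraries lay above all mLIF libraries, and it rose by 0.21 (limma adjusted p = 0.0121), 0.44 (1.01e-06) and 0.48 (2.48e-07). Anxa2, whose protein with S100A10 holds cathepsin B at the cell surface, rose by 0.56, 1.01 and 1.12 with mLIF, mOSM and hlOSM. Pcyox1, a lysosomal prenylcysteine oxidase, fell by 0.34 with mOSM and by 0.45 with hlOSM.

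In the sorting route, 1 of 21 genes rose and 1 fell with mLIF, and 5 rose and 3 fell with mOSM and likewise with hlOSM, with medians of 0.034, 0.13 and 0.11. Gnptab, the phosphotransferase subunit that makes the mannose 6-phosphate tag, was at 673, 671 and 574 in PBS and 766, 781 and 871 with hlOSM, and rose by 0.36, 0.28 and 0.34. Igf2r, the large mannose 6-phosphate receptor, was at 1109, 1128 and 1196 in PBS and 875, 856 and 912 with hlOSM, and fell by 0.17, 0.30 and 0.38 with mLIF, mOSM and hlOSM (limma adjusted p = 0.0291, 7.04e-05 and 3.1e-06). The other mannose 6-phosphate receptor gene, M6pr, named after its values were seen, was at 282, 291 and 289 in PBS and 322, 325 and 340 with hlOSM, and rose by 0.18 with mOSM (adjusted p = 0.03, and 0.0658 with the replicate block) and by 0.19 with hlOSM (0.019). The 2 receptor genes thus differed in direction. Ap1b1, a clathrin adaptor subunit, rose by 0.47 and Vps26a, a retromer subunit, fell by 0.29 with hlOSM.

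Of 29 lysosomal membrane genes, 4 rose and 0 fell with mLIF, 9 rose and 2 fell with mOSM, and 11 rose and 3 fell with hlOSM, with medians of 0.18, 0.17 and 0.18. The tetraspanin gene Cd63 was at 266, 238 and 243 in PBS and 376, 378 and 397 with hlOSM and rose by 0.29, 0.53 and 0.62. Tmem106b, a membrane protein of late endosomes and lysosomes, fell by 0.18 and 0.20 with mOSM and hlOSM, and the chloride-proton exchanger gene Clcn7 fell by 0.24 with hlOSM.

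Of 42 lysosomal hydrolases other than cathepsins, 3 rose and 0 fell with mLIF, 6 rose and 1 fell with mOSM, and 7 rose and 2 fell with hlOSM, with medians of 0.12, -0.016 and -0.011. Manba, beta-mannosidase, rose by 0.39, 0.48 and 0.59. Most genes of the list of those that process or bind cathepsins, Lgmn among them, are also in this list, so the counts of these lists are not separate. Arsb, the arylsulfatase that acts on dermatan sulfate, fell by 0.52 and 0.54 with mOSM and hlOSM, and Dnase2a, the acid DNase, by 0.65 with hlOSM. Of 19 subunits of the proton pump that acidifies the lysosome, 3, 6 and 7 rose with the 3 cytokines and 0 fell with any of them by limma, with medians of 0.14, 0.091 and 0.13. The subunit genes Atp6v1b2, at 373, 363 and 346 in PBS and 505, 504 and 575 with hlOSM, and Atp6v1h rose by 0.55 and 0.29 with hlOSM.

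The MiT/TFE factors and the genes that control them went both ways, with 1, 3 and 3 of 23 raised and 3, 4 and 5 lowered, and medians of 0.025, 0.026 and -0.042. Fnip1 and Fnip2, whose products bind folliculin and act on TFEB and TFE3 through the Rag GTPases, differed in direction. Fnip1 was at 1227, 1229 and 1298 in PBS and 868, 908 and 906 with hlOSM and fell by 0.26, 0.43 and 0.48, while Fnip2 was at 598, 541 and 476 in PBS and 701, 785 and 776 with hlOSM and rose by 0.30, 0.61 and 0.49. Tfec, a MiT/TFE family member, was low at 5, 7 and 3 in PBS and 11, 10 and 15 with hlOSM, and Foxo3 fell by 0.28, 0.52 and 0.56.

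Of 39 autophagy genes, 3 rose and 0 fell with mLIF, 6 rose and 6 fell with mOSM, and 7 rose and 10 fell with hlOSM, with medians of 0.026, 0.027 and -0.029. Plekhm1, which tethers autophagosomes to lysosomes, rose by 0.43, 0.63 and 0.64, and Vmp1 by 0.38, 0.44 and 0.52. Uvrag and the autophagy receptor-like gene Calcoco1 fell by 0.43 and 0.46 with hlOSM. Of 12 extracellular proteins that cathepsins can cut, 0, 2 and 3 rose and 3, 4 and 4 fell, with medians of -0.089, -0.013 and -0.056. Dcn, decorin, rose by 1.09 and 0.98 with mOSM and hlOSM, and Nid2, nidogen 2, by 0.77 and 0.69, while it fell by 0.31 with mLIF (limma adjusted p = 0.0499). Lama4 and Hspg2, components of the basement membrane, fell by 0.38 and 0.26 with hlOSM. The 3 falls with mLIF in this list were 0 with the replicate block.

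Among the genes that the naming rule takes from these lists, 32 of 33 calls with hlOSM held in every setting and every left-out fit, the exception being Clcn7 (limma adjusted p = 0.0674 without PBS replicate 2). With mOSM 25 of 30 held, and the calls of Serpinb6a, Tfec, Tinagl1, Tmem106b and Hspg2 were lost in at least 1 setting or left-out fit (adjusted p up to 0.182). With mLIF 6 of 16 held. Outside the lists of other cathepsins and inhibitors, the rule takes genes by their adjusted p with hlOSM. Their hlOSM calls were thus likely to hold by that choice, and these shares do not compare the cytokines. The mLIF calls of Lgmn (0.0732), Manba (0.0664), Fnip1 (0.0603) and Fnip2 (0.11) were lost without mLIF replicate 3, that of Vmp1 without PBS replicate 3 (0.0584), that of Anxa2 in 3 fits (up to 0.0941), and those of Foxo3, Hspg2, Igf2r and Nid2 in 5 to 11 fits (up to 0.305).

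**Figure D5:**
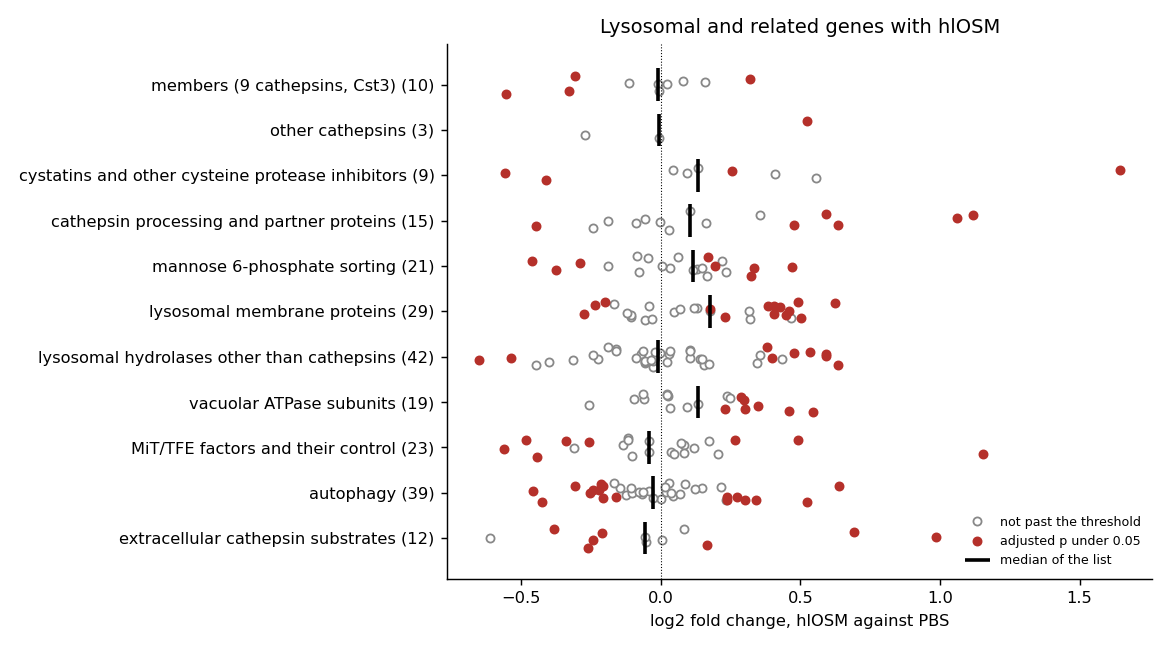
Log2 fold change with hlOSM against PBS of each tested gene in the lists of lysosomal and related genes, 1 list per line with the number of genes tested in brackets; filled points passed the limma test and bars are medians (vertical scatter only separates points). The median of the lysosomal membrane genes is 0.18 and that of the 10 cathepsin and cystatin C genes is -0.0099.

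Markers of other cells moved with the same comparisons. The 12 cardiomyocyte markers summed to 45414 to 47488 with mLIF, 37109 to 41736 with mOSM and 37931 to 40538 with hlOSM, and 7, 10 and 10 of them fell. Most of that sum was Ttn, at means of 32924 in PBS, 28727 with mLIF, 22907 with mOSM and 23564 with hlOSM. Endothelial markers summed to 1263 to 1344 in PBS and 1612 to 1739 with hlOSM, where 8 of 10 rose. Those of smooth muscle and pericytes summed to 1951 to 2313 in PBS and 1270 to 1350 with hlOSM, where 8 of 9 fell. Fibroblast markers overlapped in sum between PBS, at 2545 to 2817, and hlOSM, at 2468 to 2708, with 3 of 11 raised and 7 lowered, and Dcn is in this list too. Of 10 tested macrophage and monocyte markers, 2 rose and 2 fell with hlOSM. Of all genes, 4.44%, 15.8% and 19.8% fell with mLIF, mOSM and hlOSM, and 18.2% rose with hlOSM. With the replicate block, the cardiomyocyte falls were 5, 10 and 10. With hlOSM the block left 7 endothelial rises, 2 fibroblast rises and 1 macrophage and monocyte fall, and the other counts of these lists stayed. Cst3 and Ctsb are expressed by most of these cell types, and the part of these markers in their differences was not tested.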

How the data were processed

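RNA of 12 cardiomyocyte libraries had been trimmed, aligned to mm10 with STAR 2.7.7a and counted in exons with featureCounts 1.6.5 by the authors. The deposited values are scores on a normalized count scale that the authors rounded to whole numbers, not read counts, so no count model was used, depth in reads is unknown and no counting error was attached. The normalization is not given in the sources used here. Conditions came from the sample titles. limma 3.58.1 in R 4.3.3 (lmFit, eBayes with a mean-variance trend) was run on log2(normalized count + 1). Tested were 13184 genes with at least 10 in at least 3 libraries. All 12 libraries were in a single fit, two-sided, with Benjamini-Hochberg adjustment over all genes and a threshold of 0.05. The fit was also run on simulated data with independent errors for each library. Such data lack the opposite deviations of same-numbered libraries and cannot show whether p-values without the block are too small. Lengths came from GENCODE M21 (all exons) and promoters from RefSeq. The genes and lists were chosen with earlier results of these data known. Besides the 10 genes, the text names all tested other cathepsins and inhibitors, the 2 raised and 2 lowered genes of each further list with the smallest adjusted p with hlOSM, and the 3 genes most like Ctsb and Cst3. Of the genes this rule takes, 1 is not reported here. Alternatives were pseudocounts of 0.1 and 5, no filter or a filter at 50, robust eBayes, rescaling by trimmed means or quantiles, the 6 libraries compared alone, the replicate block and each library left out.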

Additional observations from a re-analysis of the deposited data

How the results depend on the processing

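Among the 10 genes and those that the naming rule takes from the lists, no fold change that had passed the test changed direction under any setting tried. Of these single-gene values, 2784 kept their side of the threshold, 85 lost it and 10 gained it. Other genes named here, such as Cd68, Lyz2 and M6pr, were not run through all settings. The number of the 10 genes that passed went from 1 to 0 with mLIF against PBS and from 1 to 0 with hlOSM against mLIF, both with no filter on low values and with the replicate block, where Ctsb and Ctsh were lost. With each library left out in turn, it ranged from 0 to 1 with mLIF, from 2 to 3 with mOSM and from 3 to 4 with hlOSM against PBS, was 0 throughout with hlOSM against mLIF, and ranged from 2 to 4 in the F test. Leaving out a library gave 0 calls between hlOSM and mOSM, between mOSM and mLIF and in the interaction.

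Same-numbered libraries did not deviate alike in the deposited values, which does not show whether they had been prepared together. Deviations of same-numbered libraries from their condition means correlated at -0.41 to -0.15 over 18 pairs, against 0.0044 to 0.33 for other pairs, and 0 of the 12 libraries correlated best with its own number. All 18 same-number correlations were negative, and the number held 1.70% of the within-condition variance, where 25% is the share without an effect. Values from which an effect of the replicate number has been taken out have this form, the sources used here do not state such a step, and p-values from the fit without the block may then be too small. Over all genes, the replicate block lowered the percentage that passed from 9.91 to 5.95 with mLIF, from 31.2 to 25.3 with mOSM and from 37.9 to 31.2 with hlOSM. In the lists, the block lowered the rises of membrane genes with mLIF from 4 to 2, the rises of sorting genes with mOSM from 5 to 3 and the falls of autophagy genes with hlOSM from 10 to 6. Over all settings these all-gene percentages ranged from 3.82 to 14.4, 17.8 to 36.1 and 22.3 to 43.4. The cause of these shifts was not tested.

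With 3 libraries a group and values without read depth, small changes in the lowest genes, Ctsh and Ctsf, are the least firmly measured here.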
